A study of Homo sapiens with 12 samples.

Results

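The complement genes described here are C1R, C1S, C3, CFB, C5 and C6, which encode components of the cascade, and CD46, CD55 and CD59, which encode regulators that sit on the cell membrane. They were taken by gene symbol and are 9 of the 58721 genes counted, and all 9 were tested among the 21013 genes with enough counts. RNA was sequenced from 2 Ewing sarcoma cell lines, EW8 and TC71, each with 3 libraries of cells given DMSO vehicle and 3 of cells treated for 72 h with 2000 ng/ml of doxycycline. Every group, vehicle included, had been transduced with Tet3G under the human EF1 alpha promoter and with a TRE3G cassette encoding c-Jun and c-Fos joined by a self-cleaving peptide, selected with geneticin and puromycin, and was grown with fetal bovine serum. The labels name the genotype of the vehicle libraries WT and that of the doxycycline libraries AP1_overexpression, so doxycycline and the induced proteins cannot be told apart. c-Jun and c-Fos are subunits of the transcription factor AP-1, and reads of the cassette and of the endogenous genes were counted together.

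Complement is a set of plasma and membrane proteins that marks surfaces for uptake, draws in leukocytes and can open pores in membranes. C1r and C1s are the proteases of the first complex of the classical pathway, factor B is the protease of the alternative pathway, and all pathways meet at C3. C5 is cleaved downstream of C3, and C6 joins the pore that follows. CD46 and CD55 act on the convertases that cleave C3 and C5, CD59 blocks the last step of the pore, and many tumour cells carry these regulators. Most circulating complement is made by the liver, but many other cell types transcribe complement genes.

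Each library held 42860665 to 60853649 counts. Values are CPM, which are counts relative to the library's size after the TMM scaling of edgeR, and levels are compared between genes only per length, as RPKM. A log2 fold change was called where its adjusted p was under 0.05 and its size over 1, and the 95% intervals given are not adjusted for the number of genes. A group whose libraries all held 6 counts or fewer, equal to 3 read pairs since both mates were counted, was taken to be at the floor, and its fold change is given as a bound. The floor covers counting error only. Nothing in the labels says that the 3 libraries of a group came from separate cultures, so p-values measure the spread between these libraries, which may be technical. TC71 vehicle replicate 1 stood further from the other libraries of its group than any other replicate did, and results that depend on it are given without it. JUN rose by 4.46 in EW8 and 5.19 in TC71 and FOS by 4.87 and 7.08, as log2 fold changes with adjusted p of 1.93e-15, 2.36e-16, 4.23e-19 and 9.35e-21. The 10 Ewing sarcoma markers, such as CD99, NKX2-2 and NR0B1, were above the floor in every group, with a summed level of 2881 to 3425 CPM. With doxycycline 1 of the 10, LIPI, was called lower in EW8 (log2 fold change -1.40, adjusted p = 1.08e-08), against 3.38% of all genes tested. Other markers passed the p threshold below the fold limit in both directions, such as CD99 (0.62 in EW8 and 0.44 in TC71) and PRKCB (-0.81 and -0.68).

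RefSeq promoter windows (GRCh38.p14), from 250 bases before to 50 after a start, were at hand for 7 of the 9 genes. The motif searched for AP-1 was TGANTCA, with any base allowed at N. It was found in 2707 of 35116 windows (7.71%) and in 1 of the 14 windows of these genes, a window of CD59. This window, at an internal start of CD59 on the minus strand, held 3 matches. These were TGATTCA at -117, TGAGTCA at -23 and TGACTCA at 3 relative to the start, and 10 of all windows (0.0285%) held 3 or more matches with any base at N. The CD59 matches at -117 and -23 lie in the stretch before the start at chr11:33722728-33722916, and the stretch before the outermost start at chr11:33736492-33736729 held none. Both are shown 5′ to 3′ on the minus strand, without bases in exons, because CD59 had the largest fitted rise of these genes in TC71, and the capitals mark TGANTCA on either strand.
CD59 internal start: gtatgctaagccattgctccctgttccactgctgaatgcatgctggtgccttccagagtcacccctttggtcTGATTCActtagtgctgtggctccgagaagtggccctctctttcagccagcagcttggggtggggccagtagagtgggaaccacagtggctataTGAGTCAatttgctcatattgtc
CD59 outermost start: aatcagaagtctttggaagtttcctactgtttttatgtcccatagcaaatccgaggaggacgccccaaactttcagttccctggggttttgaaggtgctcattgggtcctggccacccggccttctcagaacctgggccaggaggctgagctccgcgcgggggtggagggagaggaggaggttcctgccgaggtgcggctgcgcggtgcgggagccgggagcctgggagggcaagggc
The motifs TGACGTCA (the cAMP response element, in 1.85% of all windows), the kappa B site (1.91%), TTGCGCAA (a C/EBP palindrome, 0.151%) and GGAAGGAA (a repeat of the core that FLI1 binds, 3.67%) were searched on both strands and were in none of the 14 windows. Matches are letters in these windows, and binding was not measured.

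In EW8 with doxycycline, C3, CD55 and CD59 rose and C6 fell, which is 3 of 9 genes called higher, against 11.4% of all genes tested, and 1 of 9 called lower, against 3.38%. In TC71, C3, CFB, CD55 and CD59 rose and C6 fell, which is 4 of 9 called higher, against 12.3% of all genes, and 1 of 9 lower, against 3.67%. C3, CD55 and CD59 were thus called higher in both lines. C6 in EW8 had counts enough for the test only through TC71, so its call there adds nothing to the count of EW8. CFB had counts enough only with doxycycline libraries, so its call in TC71 adds nothing to the count of TC71. The median log2 fold change of the 9 genes was 1.035 in EW8 and 0.77 in TC71, beside -0.03 and 0.00 for all genes tested. The groups did not overlap for 7 of the 9 genes in each line, against 56% of all genes in EW8 and 50.7% in TC71. With no fold limit, 5 of the 9 passed in EW8, against 43.9% of all genes, and 8 of the 9 in TC71, against 45.6%. In cell lines as in any bulk sample, fewer cells with a transcript and less RNA per cell cannot be told apart.

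**Figure D1:**
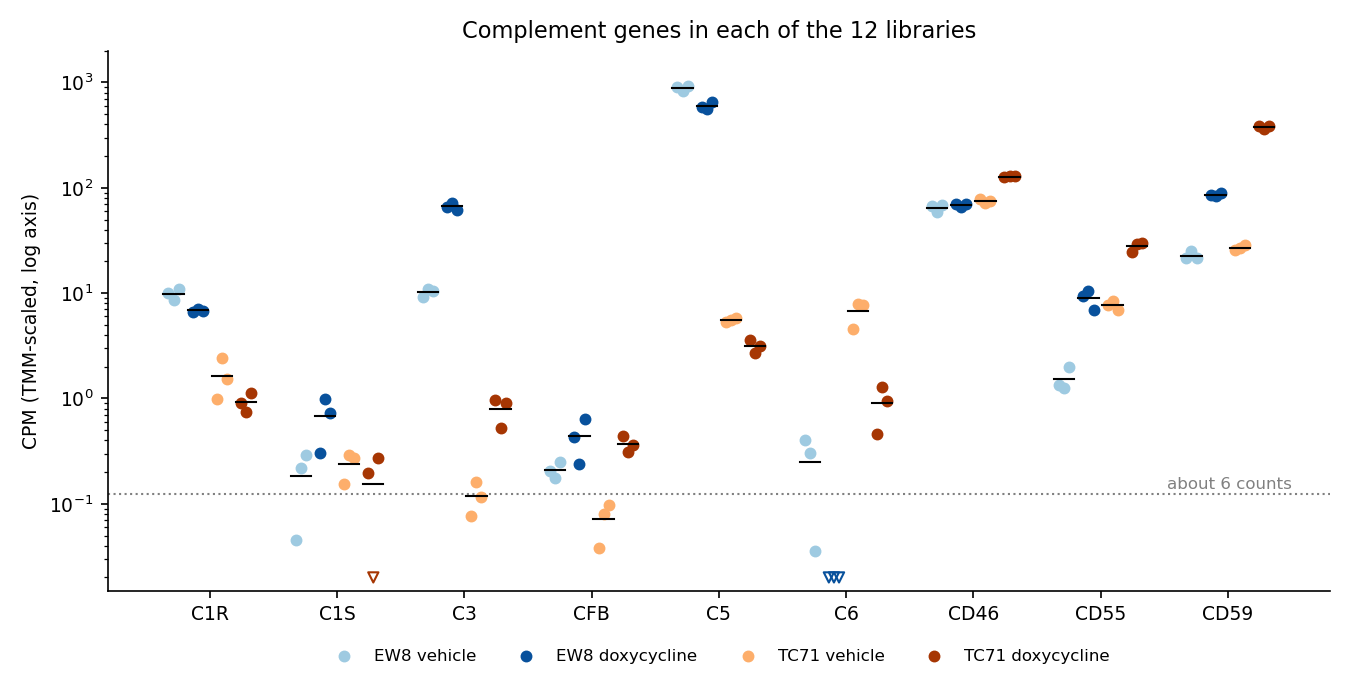
CPM of each complement gene (log axis) in each of the 12 libraries, with a bar at the group mean, open triangles for libraries at 0 and a dotted line at the mean level of 6 counts. C5 is far higher in EW8, C6 is higher in TC71, and C3, CD55 and CD59 rise with doxycycline in both lines.

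C3, the hub at which the pathways meet, rose about equally in both lines from levels far apart. In EW8 it stood at 9.25, 11.05 and 10.4 CPM under vehicle and at 65.5, 72.0 and 62.0 CPM with doxycycline. In TC71 it stood at 0.0764, 0.161 and 0.116 CPM under vehicle, which are 4, 10 and 6 counts, and at 0.970, 0.526 and 0.910 CPM with doxycycline, which are 40, 22 and 40 counts. The groups of neither line overlapped, yet every doxycycline library of TC71 lay below every vehicle library of EW8. The log2 fold change was 2.70 in EW8 (SE 0.13, adjusted p = 3.94e-12) and 2.71 in TC71 (SE 0.32, adjusted p = 1.03e-06). The difference between the responses was 0.01 (95% interval -0.71 to 0.73, adjusted p = 0.989), an interval that the low counts of TC71 leave wide. C3 is on chromosome 19 (6677704 to 6730562, minus strand, hg38) and shares no exon base with another gene.

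CFB, which encodes factor B, was measured at a low level throughout. In EW8 its libraries held 9, 8 and 14 counts under vehicle and 24, 12 and 28 with doxycycline, and the groups overlapped in CPM (log2 fold change 1.035 ± 0.61 SE, with an adjusted p of 0.188). In TC71 they held 2, 5 and 5 counts under vehicle, all at the floor, and 18, 13 and 16 with doxycycline. CFB was therefore at least 3.39-fold higher with doxycycline in TC71 (adjusted p = 0.00812), but leaving out TC71 vehicle replicate 1 ended that call (adjusted p = 0.0580). The difference between the lines' responses did not pass (adjusted p = 0.372). Of the exon bases of CFB (chromosome 6, 31945650 to 31952084), 45.47% are shared with C2 and an overlapping gene, and reads that fall there were not counted, so its level is understated.

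C5, the precursor of the C5a peptide, fell by less than the limit of a call in both lines. It stood at 904, 830 and 921 CPM under vehicle and 585, 554 and 648 CPM with doxycycline in EW8. In TC71 it stood at 5.35, 5.60 and 5.74 CPM and then at 3.59, 2.68 and 3.16 CPM. Doxycycline libraries were below vehicle libraries without overlap in both lines. The log2 fold change was -0.57 in EW8 (SE 0.07, adjusted p = 1.61e-06) and -0.82 in TC71 (SE 0.10, adjusted p = 1.95e-06), and the responses differed by -0.25 (95% interval -0.51 to 0.0026, adjusted p = 0.171).

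C1R and C1S, neighbours on chromosome 12 that encode partner proteases, showed no called response in either line. C1R stood at 9.95, 8.67 and 10.8 CPM under vehicle and 6.68, 7.13 and 6.71 CPM with doxycycline in EW8, without overlap (log2 fold change -0.52 ± 0.22 SE, with an adjusted p of 0.0674). In TC71 it stood at 0.993, 2.42 and 1.53 CPM and at 0.897, 0.741 and 1.14 CPM with doxycycline. These TC71 groups overlapped, and the log2 fold change of -0.84 ± 0.28 SE (adjusted p = 0.0179) passed the p threshold and not the fold limit. With 1 library left out it ranged from -1.18 (adjusted p = 1.68e-04, without TC71 vehicle replicate 1) to -0.44 (adjusted p = 0.177, without TC71 vehicle replicate 2). It was called without TC71 vehicle replicate 1 or doxycycline replicate 3 (-1.02, adjusted p = 0.0162), and it missed the p threshold also without TC71 doxycycline replicate 1 or 2. C1R shares 11.42% of its exon bases with C1RL.

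C1S was near the floor in most libraries. In EW8 it had 2, 10 and 16 counts under vehicle and 17, 50 and 32 with doxycycline, and in TC71 it had 8, 18 and 14 counts and then 8, 0 and 12. The EW8 groups did not overlap and the TC71 groups did. The log2 fold change was 1.84 in EW8 (SE 0.82, adjusted p = 0.0790) and -0.60 in TC71 (SE 0.87, adjusted p = 0.616), and the difference between them was -2.44 (95% interval -4.96 to 0.08, adjusted p = 0.173). In EW8 the adjusted p was 0.0454 with no filter on low counts, 0.0142 with only the EW8 libraries in the fit and 0.0406 without TC71 doxycycline replicate 2. With 1 library left out the EW8 change ranged from 1.40 to 2.37 and its adjusted p from 0.0406 to 0.258.

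C6, which inserts into the growing pore, fell in TC71 and was close to the floor in EW8. Its TC71 libraries stood at 4.58, 7.94 and 7.72 CPM under vehicle and 0.461, 1.29 and 0.956 CPM with doxycycline, so that its log2 fold change came to -2.90 ± 0.45 SE (adjusted p = 5.73e-05). In EW8 its libraries held 18, 14 and 2 counts under vehicle and none with doxycycline. It was at least 2.06-fold lower there (adjusted p = 0.00174), and with only the EW8 libraries in the fit it had too few counts to be tested. The difference between the lines' responses did not pass (adjusted p = 0.207). C6 lies on chromosome 5 (41142234 to 41261438, minus strand).

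**Figure D2:**
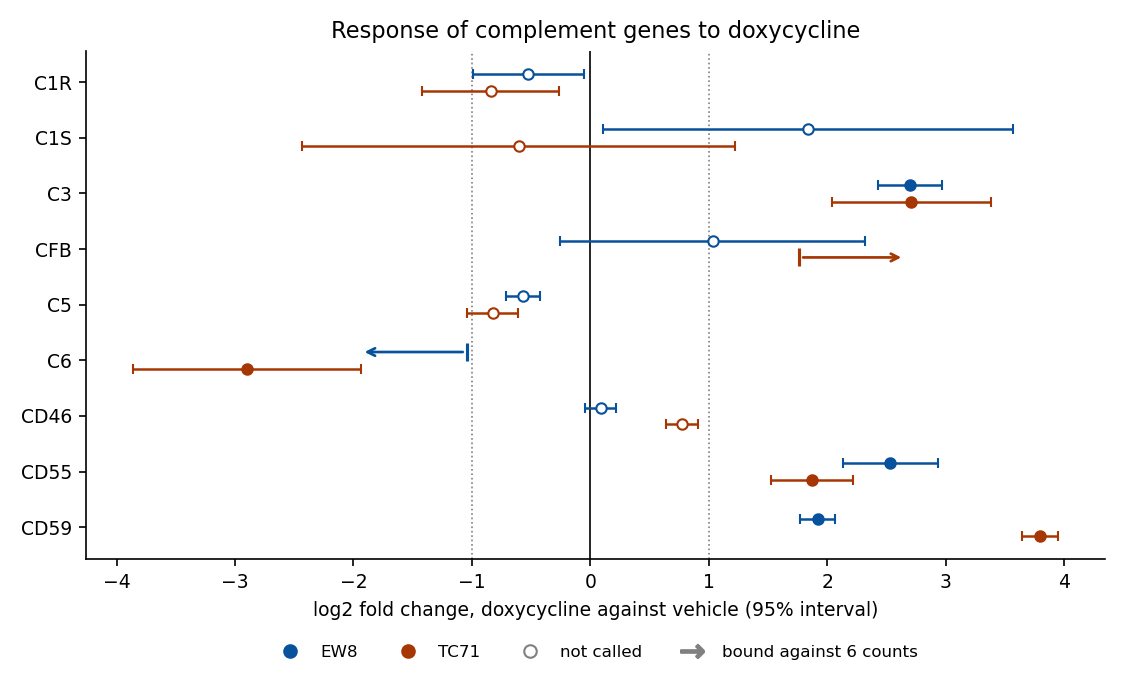
Log2 fold change with doxycycline against vehicle for each gene in EW8 and TC71, with 95% intervals, open points where the change was not called, dotted lines at the fold limit, and arrows from the bound where 1 group was at the floor. C3 has the same position in both lines, CD59 lies furthest to the right in TC71, and the interval of CD46 covers 0 in EW8 and not in TC71.

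Among the membrane regulators, CD59 and CD55 rose in both lines and CD46 passed the p threshold in TC71 alone, below the fold limit. CD59, the anchored inhibitor of the pore, stood at 21.3, 25.1 and 21.7 CPM under vehicle and 85.8, 83.5 and 88.5 CPM with doxycycline in EW8. The TC71 libraries stood at 25.5, 26.7 and 28.9 CPM and reached 384, 363 and 383 CPM. The lines thus started close together and ended apart, with no overlap between vehicle and doxycycline in either. The log2 fold change was 1.92 in EW8 (SE 0.07, adjusted p = 8.56e-14) and 3.80 in TC71 (SE 0.07, adjusted p = 1.06e-17). The response was larger in TC71 by 1.88 (95% interval 1.67 to 2.09, adjusted p = 1.14e-10), which made CD59 the 1 gene of the 9 called higher for the difference of responses, against 4.18% of all genes, while 0 of the 9 were called lower by edgeR or DESeq2, against 2.87%, with 1 (CD55) lower at an unadjusted p under 0.05. With no fold limit CD46 passed too, which makes 2 of 9 against 19.3% of all genes. CD59 is on chromosome 11 (33703010 to 33736491, minus strand) and shares 6.073% of its exon bases with an overlapping gene.

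CD55, the decay-accelerating factor, stood at 1.35, 1.26 and 1.98 CPM under vehicle and 9.49, 10.4 and 6.90 CPM with doxycycline in EW8. The levels in TC71 were 7.73, 8.47 and 6.87 CPM and then 24.8, 29.5 and 30.2 CPM. Vehicle and doxycycline did not overlap within a line, while the doxycycline libraries of EW8 overlapped the vehicle libraries of TC71. The log2 fold change was 2.53 in EW8 (SE 0.19, adjusted p = 3.43e-09) and 1.87 in TC71 (SE 0.16, adjusted p = 2.60e-08). The difference of -0.66 between them did not pass (95% interval -1.19 to -0.13, adjusted p = 0.0730).

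CD46, the membrane cofactor protein, stood at 66.8, 58.8 and 67.9 CPM under vehicle and 69.6, 66.3 and 69.8 CPM with doxycycline in EW8, with overlap. Its log2 fold change there was 0.09 (95% interval -0.05 to 0.22, adjusted p = 0.295), so a change as large as the fold limit lies outside the interval. Its TC71 levels were 77.7, 71.5 and 74.5 CPM and then 126, 128 and 129 CPM with doxycycline, without overlap. The log2 fold change in TC71 was 0.77 (SE 0.06, adjusted p = 8.63e-09), larger than in EW8 by 0.69 (95% interval 0.50 to 0.88, adjusted p = 1.80e-05). JUN and FOS also rose more in TC71 than in EW8, by 0.73 and 2.21 on the log2 scale (adjusted p = 0.00217 and 6.41e-12), and their part in the larger CD59 and CD46 responses was not tested. CD46 (207752057 to 207795513) and CD55 (207321376 to 207386804) lie in the same stretch of chromosome 1 as C4BPA, CR1 and CR2, which had no counts in any of the 12 libraries.

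**Figure D3:**
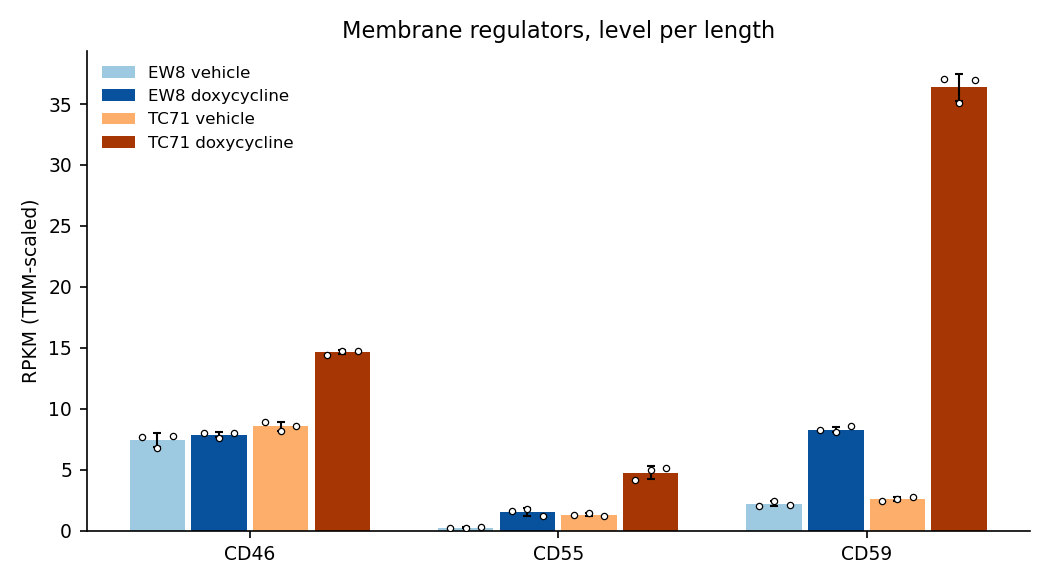
Mean RPKM of CD46, CD55 and CD59 per group, with SD bars and a point per library (n = 3). CD59 is below CD46 under vehicle in both lines and is the highest bar of the plot in TC71 with doxycycline.

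Per length, the order of the genes differed between the lines. In EW8 under vehicle C5 led with 135 RPKM ± 7.43 (SD, n = 3), followed by CD46 with 7.41 ± 0.572, CD59 with 2.19 ± 0.202, C1R with 1.67 ± 0.186, C3 with 1.23 ± 0.109 and CD55 with 0.259 ± 0.0656. C6, CFB and C1S came last, between 0.0284 and 0.0525 RPKM, and their libraries overlapped from each to the next. With doxycycline in EW8 C5 (91.2 ± 7.28) was followed by CD59 (8.30 ± 0.244), C3 (7.99 ± 0.606) and CD46 (7.87 ± 0.225), and the libraries of C3 overlapped those of CD59 and those of CD46.

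In TC71 under vehicle CD46 led with 8.56 ± 0.354 RPKM, ahead of CD59 with 2.61 ± 0.168, and C6 (1.42 ± 0.397) and CD55 (1.302 ± 0.136) overlapped next. C5 followed with 0.852 ± 0.0309 and C1R with 0.280 ± 0.122, and C3 came last with 0.0142 ± 0.00509, overlapping CFB. With doxycycline in TC71 the 3 membrane regulators stood above all 6 components, CD59 with 36.4 ± 1.12, CD46 with 14.7 ± 0.183 and CD55 with 4.77 ± 0.502, and C5 came next with 0.481 ± 0.0698.

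The largest differences between the lines under vehicle were those of C5 and C3. Under vehicle C6 and CD55 were called higher in TC71, 2 of 9 genes against 11.6% of all genes tested, and C1R, C3 and C5 were called lower, 3 of 9 against 18.9%. With doxycycline C6, CD55 and CD59 were called higher in TC71, 3 of 9 against 12.6%, and C1R, C1S, C3 and C5 lower, 4 of 9 against 18.4%. With 2 lines, a line difference describes these lines alone.

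C5 was 159-fold lower in TC71 than in EW8 under vehicle (log2 difference -7.31, SE 0.09, adjusted p = 1.32e-19) and 190-fold lower with doxycycline (-7.57, SE 0.10, adjusted p = 1.72e-19). In EW8 under vehicle C5 ranked 102 of the 21013 tested genes by CPM and 281 per length. Of all tested genes, 380 had a log2 difference under vehicle as low as that of C5 or lower. C5 lies on chromosome 9 (120952335 to 121050276, minus strand). The 10 tested genes with a name that lay wholly within 300 kb of its ends were chosen after the values were seen. They had log2 differences from -2.59 (GSN) to 0.69 (AHCYP2), with a median of -0.55. TRAF1, the nearest of them, stood at 4.20 CPM in EW8 and 1.17 CPM in TC71 under vehicle (log2 difference -1.85, adjusted p = 3.23e-08). C5 has another RefSeq start further upstream (window chr9:121074816-121075115). The stretch before the start at the end of the gene as counted, chr9:121050277-121050525, is shown 5′ to 3′ on the minus strand because of the size of this difference, and neither window held a motif searched.
C5 start: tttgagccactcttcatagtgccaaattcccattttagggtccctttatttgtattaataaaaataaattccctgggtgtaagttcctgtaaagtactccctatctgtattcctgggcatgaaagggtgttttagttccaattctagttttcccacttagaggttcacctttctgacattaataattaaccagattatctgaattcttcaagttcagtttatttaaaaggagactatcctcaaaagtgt

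**Figure D4:**
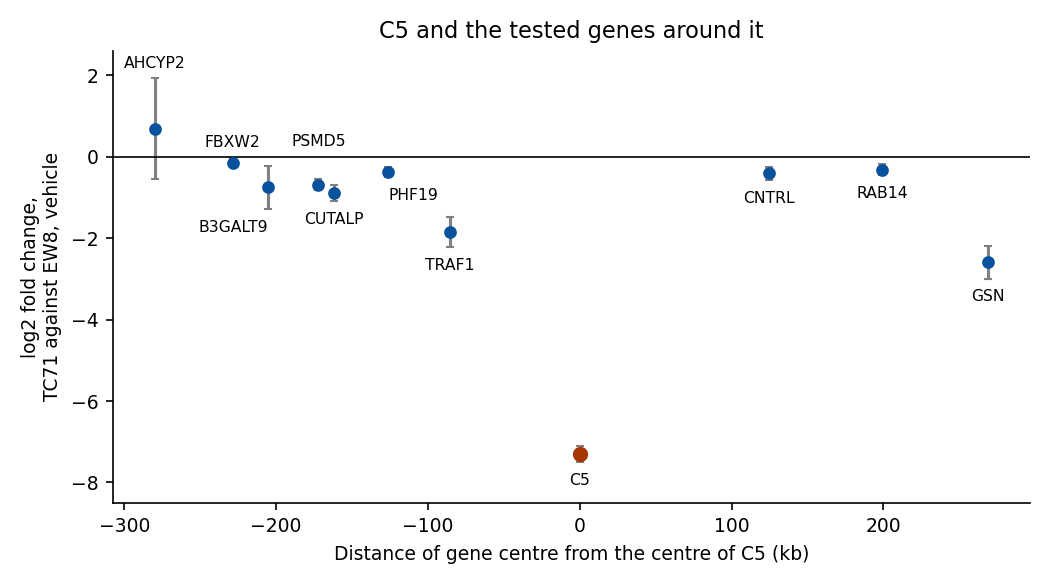
Log2 fold change of TC71 against EW8 under vehicle, with 95% intervals, for C5 and the 10 tested genes with a name around it, by the distance in kb of each gene's centre from that of C5. C5 lies at -7.31, below its neighbours, which range from -2.59 to 0.69.

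C3 was 83.3-fold lower in TC71 under vehicle (log2 difference -6.38, SE 0.22, adjusted p = 3.00e-14) and 82.6-fold lower with doxycycline (-6.37, SE 0.17, adjusted p = 1.05e-15). C1R was lower in TC71 by a log2 difference of -2.56 under vehicle (SE 0.24, adjusted p = 3.76e-08) and -2.88 with doxycycline (SE 0.26, adjusted p = 2.30e-08). C6 went the other way, with a log2 difference of 4.80 under vehicle (SE 0.53, adjusted p = 5.86e-07), and it was at least 7.46-fold higher in TC71 with doxycycline (adjusted p = 8.96e-06). The C1S difference with doxycycline, -2.09 (SE 0.85, adjusted p = 0.0384), lost its call without any 1 of 5 libraries.

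Of the regulators, CD55 was higher in TC71 by 2.31 under vehicle (SE 0.19, adjusted p = 5.00e-09) and 1.65 with doxycycline (SE 0.16, adjusted p = 6.55e-08), as log2 differences. CD59 differed by 0.25 under vehicle (adjusted p = 0.00409) and by 2.13 with doxycycline (SE 0.07, adjusted p = 9.48e-15). CD46 differed by 0.21 (adjusted p = 0.00791) and 0.90 (SE 0.06, adjusted p = 6.29e-10), both below the fold limit. CFB did not pass under either treatment (adjusted p = 0.0621 and 0.761).

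**Figure D5:**
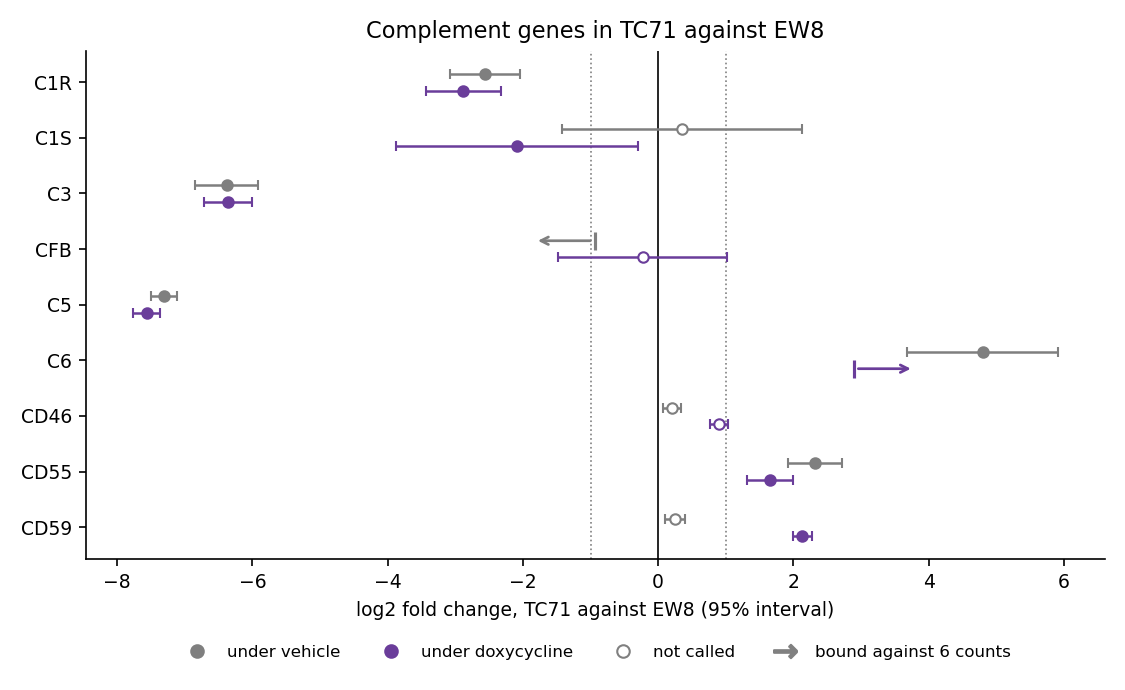
Log2 fold change of TC71 against EW8 for each gene under vehicle and with doxycycline, with 95% intervals, open points where the difference was not called, dotted lines at the fold limit, and arrows from the bound where 1 group was at the floor (that of CFB was not called). C5 and C3 lie furthest to the left, C6 furthest to the right, and CD59 moves from 0.25 to 2.13.

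Of 46 other complement genes, 23 were tested, and 13 had no counts in any library, among them the C1q genes C1QA, C1QB and C1QC. In EW8, 5 of the 23 rose with doxycycline (CFI, CLU, COLEC10, C3AR1 and CD93), against 11.4% of all genes tested, and 0 fell by edgeR, against 3.38%, as by DESeq2, although 2 were lower at an unadjusted p under 0.05 and short of the fold limit. With doxycycline in TC71, 6 of the 23 rose (SUSD4, CFI, CLU, C1RL, C3AR1 and CD93), against 12.3%, and 1 (C7) fell, against 3.67%. CD93 and CFI had counts enough for the test only with doxycycline libraries, and C7 only with TC71 vehicle libraries. The calls of CD93, CFI and C7 therefore add nothing to these counts. CLU, which encodes the fluid-phase pore inhibitor clusterin, averaged 38.6 CPM under vehicle and 611 CPM with doxycycline in EW8 and 3.56 and 137 CPM in TC71. Its log2 fold changes were 3.98 ± 0.11 SE (adjusted p = 1.55e-15) and 5.25 ± 0.12 SE (adjusted p = 1.70e-16).

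C3AR1, the receptor of the C3a peptide, rose by 2.85 in EW8 (SE 0.24, adjusted p = 1.42e-08) and 4.46 in TC71 (SE 0.26, adjusted p = 8.18e-11) on the log2 scale. CD93, a membrane protein once described as a C1q receptor, rose by 4.996 in EW8 (SE 0.37, adjusted p = 1.15e-08) and was at least 32.3-fold higher in TC71, where vehicle libraries held no counts (adjusted p = 1.19e-09). CFI, the protease that uses CD46 as cofactor, rose by 3.79 in EW8 (SE 0.47, adjusted p = 2.83e-06), and its TC71 change of 1.77 (SE 0.61, adjusted p = 0.0209) came from groups that overlapped. Of the exon bases of CFI, 32.04% are shared with an overlapping gene, and reads that fall there were not counted. Without TC71 vehicle replicate 1 the CFI change in TC71 was 1.39 (adjusted p = 0.0742), and its difference from the EW8 response, not called with all libraries (-2.02, adjusted p = 0.0888), was -2.45 (adjusted p = 0.0282). C7, which follows C6 into the pore, fell by 3.27 in TC71 (SE 0.44, adjusted p = 1.13e-05) and was at the floor in EW8.

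Of 22 acute-phase genes, whose proteins change in plasma during inflammation, 6 were tested and 7 had no counts in any library. In EW8, 2 of the 6 rose, against 11.4% of all genes, and 0 fell by edgeR, against 3.38%, as by DESeq2, and none was lower even at an unadjusted p under 0.05, while 2 rose, against 12.3%, and 1 (A2M) fell, against 3.67%, in TC71. The 2 that rose, PTX3 and SERPINA1, had counts enough for the test only with doxycycline libraries. Their rises therefore add nothing to these counts. PTX3, which encodes a pentraxin that binds C1q, was at least 212-fold higher with doxycycline in EW8 (26.4 CPM, adjusted p = 1.43e-12) and rose by 7.67 in TC71 (SE 0.39, 12.7 CPM, adjusted p = 9.67e-12), from vehicle libraries of 0 to 8 counts. Its TC71 change ranged from 7.06 without TC71 vehicle replicate 1 to 9.18 without TC71 vehicle replicate 2. SERPINA1, the antitrypsin gene, was at least 17.5-fold higher in EW8 (adjusted p = 1.35e-05), and in TC71 it had 0 counts under vehicle and at most 8 in a doxycycline library. The TC71 groups of SERPINA1 overlapped, and its call (adjusted p = 0.0149) was lost without TC71 doxycycline replicate 2 (adjusted p = 0.0744). Hepatocyte markers stayed at 0.155 to 0.477 CPM in sum, with ALB, APOA2, APOB, TTR, F2, CYP3A4 and HNF4A at 6 counts or fewer in at least 3 of the 4 groups.

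Markers of other cells that transcribe complement genes moved with some of these comparisons, not all in 1 direction. The 8 endothelial markers summed to 22.2 to 23.1 CPM under vehicle and 55.3 to 62.6 CPM with doxycycline in EW8, and to 3.07 to 3.53 and 11.1 to 13.9 CPM in TC71. In each line 5 of them were called higher and none lower, PECAM1, VWF, ERG and CLDN5 in both. TEK in TC71, at the floor in both groups, was left out. Of all genes tested, 11.4% were called higher and 3.38% lower in EW8, and 12.3% and 3.67% in TC71. VWF, ERG and TEK had counts enough for the test only with doxycycline libraries, so their calls add nothing to these counts. EMCN, the most abundant in EW8 under vehicle, went from 13.9 to 7.27 CPM there (log2 fold change -0.94, below the fold limit).

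The 10 leukocyte markers summed to 60.9 to 70.9 CPM under vehicle and 75.9 to 81.2 CPM with doxycycline in EW8, most of it PTPRC (65.9 and 74.9 CPM). In TC71, where PTPRC was at the floor, the sum was 0.524 to 0.870 CPM and then 1.82 to 2.18 CPM, and CSF1R was called higher in both lines. MS4A1 had no counts in any group. The 10 fibroblast markers summed to 123 to 136 CPM in EW8 and to 98.9 to 154 CPM under vehicle and 177 to 188 CPM with doxycycline in TC71. Behind these sums, 2 rose (PDGFRA and FAP) and 2 fell (PDGFRB and LUM) in EW8, and 4 rose (COL1A1, COL1A2, FAP and POSTN) and 3 fell (PDGFRB, DCN and LUM) in TC71, with TCF21 at 0 in all. The shares of all genes tested were 11.4% higher and 3.38% lower in EW8, and 12.3% and 3.67% in TC71. POSTN had counts enough for the test only with doxycycline libraries, so its call adds nothing to that count. The part of these markers in the complement results was not tested.

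The tested genes whose profile over the 12 libraries lay closest to each complement gene were ranked by the mean absolute difference of centred log2 CPM. About 2 counts were added to each value before the log was taken. CD46 had the closest, SEL1L (0.0544) and RASA1 (0.0606), followed by CD59 with SYT6 (0.167) and LTBP2 (0.170) and C1R with BCAS4 (0.170) and ZNF569 (0.200). For CFB these were NEXN (0.199) and DOCK11 (0.238), for C5 MAB21L3 (0.208) and KIRREL2 (0.225), and for CD55 MAP1B (0.233) and LRP10 (0.263). More distant ones were found for C3, with CD163L1 (0.471) and GJB2 (0.570), C1S with EIF3FP1 (0.471) and SLC11A1 (0.472), and C6 with CA14 (0.583) and C7 (0.684). The added counts flatten the profiles of genes with few counts, such as CFB and C1S. Distances of such genes cannot be set beside those of CD46 or CD59.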

How the data were processed

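Polyadenylated RNA was made into stranded libraries and sequenced as read pairs, with 3 libraries for each of 4 groups named from the labels. The authors deposited a table of raw counts per gene, made with STAR on hg38 (version not given in the sources used here) and featureCounts 2.0.1 on GENCODE 29. The stated settings count exon overlaps by gene, with no option for pairs, strand or multiple overlap, so mates were counted singly, strand was not used and reads on exons of more than 1 gene were dropped.

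Symbols were matched by identifier for 58207 of 58721 genes (99.1%). In edgeR 4.0.16 (R 4.3.3), filterByExpr kept 21013 genes with 99.95% of the counts, and the quasi-likelihood test was fitted to all 12 libraries with TMM scaling and a level per group. Benjamini-Hochberg adjustment ran over all genes tested, and the SE within a line or between lines came from the fitted coefficient and its F statistic. For the difference of responses, the SE was the root of the summed squared SEs of the EW8 and TC71 responses. The interval of such a difference therefore need not match its p-value. The comparisons were doxycycline against vehicle within EW8 and within TC71, the gap between those responses (TC71 minus EW8), and TC71 against EW8 under each treatment. The fit was tested on simulated data. Alternatives included DESeq2 1.42.0, the tool of the study.

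All 9 genes are named. Other complement genes are named where called in both lines or among the 2 largest changes in a line, acute-phase genes where among the 2 largest, and like genes where among the 2 closest. COLEC10, SUSD4, C1RL, C7, SERPING1, A2M and the genes around C5 were named after their values were seen. The genes and lists were chosen with earlier results of these data known.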

Additional observations from a re-analysis of the deposited data

Results flagged for a closer look

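The responses of these genes to doxycycline differed between the lines by the interaction test of edgeR, and each value is the TC71 log2 fold change minus that of EW8. CD59 differed by 1.88 (adjusted p = 1.14e-10) and CD46 by 0.69 (adjusted p = 1.80e-05), both rising more in TC71. CLU differed by 1.27 (adjusted p = 7.37e-06), C3AR1 by 1.61 (adjusted p = 0.00286) and SUSD4, a membrane complement regulator, by 1.39 (adjusted p = 0.00219). CLU differed by 0.97 without TC71 vehicle replicate 3, under the fold limit. CD93 differed by 5.44 (adjusted p = 0.00284) and COLEC10, a lectin-pathway recognition gene, by -3.62 (adjusted p = 0.0408), but 1 group of each was at the floor, so these sizes depend on the prior count. SERPING1, the C1 inhibitor gene, differed by -1.10 (adjusted p = 2.15e-04), and by -0.99 without TC71 vehicle replicate 2 and -0.98 without TC71 doxycycline replicate 3, under the fold limit. It stood at 29.2 CPM under vehicle and 40.5 CPM with doxycycline in EW8 (log2 fold change 0.47, adjusted p = 0.00508) and at 35.3 and 22.8 CPM in TC71 (-0.63, adjusted p = 4.93e-04), as means of 3 libraries. A2M, a broad protease inhibitor gene, differed by -2.17 (adjusted p = 0.00289).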

How the results depend on the processing

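Over 21 alternatives, 830 of 859 recomputed log2 fold changes of the 9 genes kept their direction and their side of the threshold, 7 lost a call, 5 gained one and 17 changed sign. Requiring 10 counts in every library left 5 of the 9 genes tested, and the counts of called genes were then 2 in each line with doxycycline, 3 between lines under vehicle and 4 with doxycycline. Of the 14647 genes tested in that setting, 1255 were called higher and 345 lower in EW8, and 1362 and 547 in TC71. Between lines these were 1692 and 1874 under vehicle and 1550 and 1914 with doxycycline. With no fold limit, 8 genes were called in TC71, against 45.6% of all genes, and 2 for the difference of responses, against 19.3%. Leaving out 1 library gave 4 to 5 called genes in EW8, 5 to 6 in TC71, 1 for the difference, 5 between lines under vehicle and 6 to 7 with doxycycline. Of the 21845 to 22187 genes then tested, 2376 to 2693 were called higher and 551 to 725 lower in EW8. In TC71 these were 2440 to 2656 and 752 to 940, and for the difference 689 to 898 and 546 to 846. Between lines they were 2407 to 2797 and 3760 to 4141 under vehicle, and 2400 to 2708 and 3787 to 4241 with doxycycline. The C3 difference of responses changed sign around 0, with -0.029 under median-ratio size factors, -0.024 under library size alone, -0.00325 with DESeq2, -0.11 with counts halved and -0.33 to 0.32 with 1 library left out. The C1R difference of responses was -0.70 to 0.077 with 1 library left out (0.077 without TC71 vehicle replicate 2), the C1S line difference under vehicle -0.087 to 0.88 (-0.087 without EW8 vehicle replicate 1), and the CFB line difference with doxycycline -0.54 to 0.077 (0.077 without EW8 doxycycline replicate 3). The cause of these changes was not tested. The CFI call in TC71 was lost with counts halved and without TC71 vehicle replicate 1 or 2 or doxycycline replicate 1.

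Same-numbered vehicle and doxycycline libraries did not deviate together (correlations of -0.0282 to 0.00977 over genes). No pairing by number was thus seen, but 3 libraries a group cannot show that there was none, and the labels do not say. With the replicate block, the C3 difference of responses was -0.017, the C1S line difference with doxycycline lost its call (-2.002, adjusted p = 0.0650), and no other call of the 9 genes changed. Depth limits C1S, CFB, C6 in EW8 and C3 in TC71.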
